A study of Homo sapiens with 8 samples.

Results

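The genes described here encode the eukaryotic translation initiation factors (eIFs), with the kinases and binding proteins that carry an EIF symbol, and they include EIF5A2. They were chosen by symbol and by signal, as protein-coding genes whose name begins with EIF and a digit from 1 to 6 and that had an array probe well above background on the 4 input arrays. Of 56 such genes listed, 52 had a matched probe and 50 met the signal requirement, out of 13659 genes tested. EIF4E1B and EIF4E3 had a probe that was not well above background on all input arrays, and no probe was matched to EIF2S3, EIF2S3B, EIF3CL or EIF4EBP3. Probes were matched through RefSeq alone, so this does not show that the array lacks those genes. The brightest passing probe stood for a gene, and changes of a probe were compared between groups, never the levels of different probes.

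The cells were A431, a human line of cutaneous squamous cell carcinoma (cSCC). They had been transfected with 10 nM of the control miR-NC or of miR-634, and lysates were made after 24 h. AGO2, the protein that holds a microRNA against its target mRNAs, was precipitated with the RNA bound to it (RIP), and this RNA was set beside input RNA on one-color arrays, with 2 input arrays and 2 RIP arrays from each kind of cells. The methods describe the input as total RNA, whereas the labels of those arrays name a normal rabbit IgG antibody, and the arrays are taken as input here. The sources used here do not say whether the 2 arrays of a group came from separate transfections, so p-values measure only the spread between these arrays. All 10 squamous carcinoma markers examined (EGFR, KRT5, KRT14, KRT17, KRT6A, TP63, SFN, DSP, CDH1 and PKP1) were well above background on the input arrays, and so were 0 of 5 fibroblast markers (COL1A1, COL1A2, COL3A1, PDGFRB and DCN). Of markers of blood cells, CD14 was well above background (levels of -0.37 and -0.40 in miR-NC and -0.69 and -0.70 in miR-634 cells), and PTPRC and CD3E were not. Between 45.6% and 45.8% of spots were well above background on the input arrays. Fewer were so in the RIP, 33.6% and 34.5% with miR-NC and 40.0% on both arrays with miR-634. With 2 arrays in a group, each value has a limited precision.

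In translation initiation, eIF2 brings the initiator methionyl-tRNA to the small ribosomal subunit, and eIF2B reloads eIF2 with GTP. The eIF4 proteins bind the mRNA cap and unwind the leader, the many-subunit eIF3 holds the small subunit to the mRNA, and eIF1, eIF1A and eIF5 set the start codon before eIF5B joins the large subunit. eIF5A, once counted as an initiation factor, carries the modified lysine hypusine and helps the ribosome through peptide bonds that form slowly; EIF5A2 is its second gene, expressed in few normal tissues and raised in several carcinomas. The mature miR-634 is shown because its seed, bases 2 to 8 (in capitals), is the part through which a microRNA mainly finds its targets.
hsa-miR-634: aACCAGCAccccaacuuuggac
These 22 bases, from RefSeq (GRCh38.p14), lie on the plus strand of chromosome 17, within the span of the protein-coding gene PRKCA. The DNA complement of the seed reads TGCTGGT. Transcript sequences were not used here, so sites in the mRNAs of the factors were not searched.

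Enrichment stands for RIP over input, as a log2 ratio within 1 kind of cells. Levels are log2 signals with the 75th percentile of the probes detected on all 8 arrays set to 0 on each array. The fold change of enrichment compares the enrichment of miR-634 cells with that of miR-NC cells, and it equals the RIP change minus the input change, so all of these comparisons share arrays. Genes were called at an adjusted p under 0.05 with limma over the 13659 genes.

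The 2 EIF5A genes moved apart after miR-634. The input level of EIF5A2 (NM_020390) was -2.79 and -2.69 on the miR-NC arrays and -4.18 and -4.26 on the miR-634 arrays. Both miR-634 input arrays were below both miR-NC arrays, and by far more than the arrays of a group differed. The input change was -1.48 (log2, adjusted p = 0.00351, standard error 0.13), 2.79-fold lower, and no other initiation factor gene fell further. In the AGO2 RIP, EIF5A2 was at -3.61 and -3.28 with miR-NC and at -3.49 and -3.69 with miR-634. These RIP values overlapped between the 2 kinds of cells, and the RIP change of -0.15 did not pass (standard error 0.13, adjusted p = 0.339). EIF5A2 was thus below its input in the RIP of miR-NC cells (enrichment -0.70, adjusted p = 0.00381) and, with this scaling, above it in miR-634 cells (0.63, adjusted p = 0.00509). Its enrichment thus rose 2.51-fold after miR-634 (log2 1.33, adjusted p = 0.00162, standard error 0.18), with log2 values of 1.51 from the first arrays of the groups and 1.15 from the second. By construction this value is the RIP change of -0.15 minus the input change of -1.48. The share of each depends on the scaling. The RIP change was 0.76 with spike-in scaling and called higher (adjusted p = 0.00415), and there EIF5A2 was below its input in both kinds of cells, at -3.17 with miR-NC and less so with miR-634 (-0.76), both called. In bulk RNA, less EIF5A2 RNA per cell and fewer cells with it cannot be told apart. The rise of enrichment and the fall of input passed under each of the 20 other settings (in 8 of them a group held 1 array, and its spread came from the other groups), with log2 values from 1.01 to 2.41 and from -1.66 to -0.96.

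EIF5A (NM_001970), the gene expressed in most tissues, had input levels of 1.49 and 1.50 in miR-NC cells and of 1.49 and 1.42 in miR-634 cells. The 2 groups overlapped, and the input change of -0.04 did not pass (standard error 0.22, adjusted p = 0.95). Its RIP levels were 1.73 and 1.80 in miR-NC cells and 0.46 and 1.16 in miR-634 cells. Both miR-634 RIP arrays were lower, but they differed from each other more than those of any other factor gene (SD 0.50, n = 2). The RIP change was -0.96 (adjusted p = 0.00956) and the fold change of enrichment -0.93 (standard error 0.31, adjusted p = 0.0434). This fall of enrichment was not called when centered on the median gene (-0.75, adjusted p = 0.0862), and it was 0.16 with spike-in scaling. It also lost its call with the percentile over all probes (adjusted p = 0.0652), the median of detected probes (0.0515), the authors' values (0.0647) and no filter (0.056), and without any 1 of the miR-NC input arrays (adjusted p = 0.106 and 0.102), miR-NC RIP arrays (0.0744 and 0.0897) or miR-634 input arrays (0.116 and 0.0979). Without the miR-634 RIP array numbered 1 it was -0.58, and without the array numbered 2 it was -1.28.

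Set side by side on each input array, the EIF5A2 signal minus the EIF5A signal was lower by 1.44 in miR-634 cells, and the nearest arrays of the 2 groups were 1.40 apart. The exact two-sided permutation test gave p = 0.333, the smallest that 2 arrays against 2 allow. EIF5AL1 (NM_001099692), an intronless copy nearly identical to EIF5A, so that the probes may share signal, had input levels of -3.60 and -3.60 in miR-NC cells and -3.77 and -3.92 in miR-634 cells. In the RIP it was at -2.76 and -2.71 in miR-NC cells and at -3.23 and -3.12 in miR-634 cells. It was enriched in the RIP of both, at 0.87 and 0.67 (-1.60 and -0.71, both called lower, under spike-in scaling), while its fold change of enrichment of -0.19 (adjusted p = 0.149) and input change of -0.24 (adjusted p = 0.0797) did not pass. Under spike-in scaling the fold change was 0.89 and called.

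**Figure D1:**
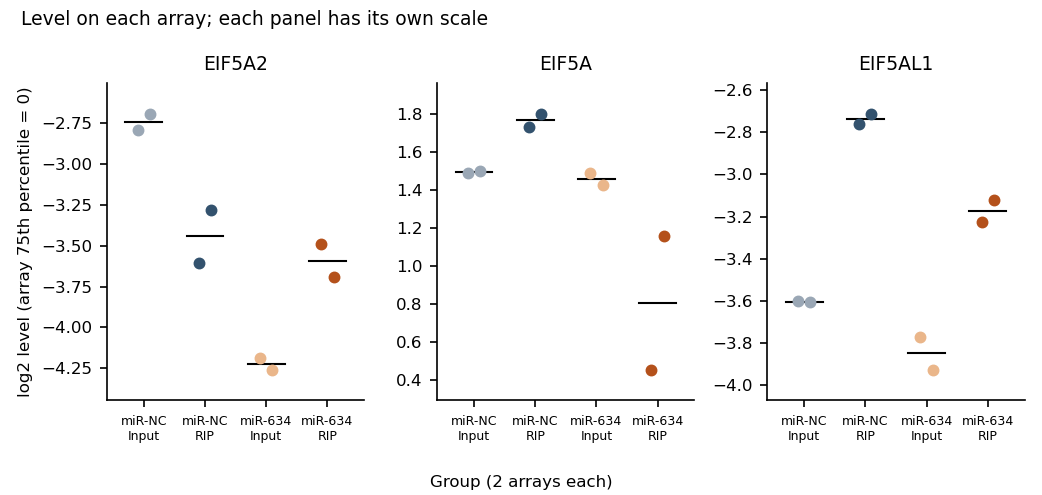
Log2 level of EIF5A2, EIF5A and EIF5AL1 on each of the 8 arrays (vertical axis, with the 75th percentile of detected probes of each array at 0; each panel has its own scale), by group on the horizontal axis; points are arrays and lines are means of 2. EIF5A2 falls between the input groups from a mean of -2.74 to -4.22, and the 2 miR-634 RIP points of EIF5A lie apart, at 0.46 and 1.16.

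The hypusine of eIF5A is made by DHPS and DOHH, which are named here after their values were seen. Both showed a higher enrichment in miR-634 cells, as did 24.8% of all genes. DHPS rose by 1.38 (log2, adjusted p = 0.000377) with an input change of -0.04 (adjusted p = 0.804). DOHH rose by 1.53 (adjusted p = 0.000804), with an input change of 0.49 that did not pass (adjusted p = 0.0538).

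With the control miR-NC, most of the factor mRNAs were below their input in the AGO2 RIP. In miR-NC cells, 32 of the 50 genes were lower in the RIP than in the input and 9 were higher, where 43.4% of all genes were lower and 27.2% higher. The median enrichment was -0.55 over the factors and -0.21 over all genes. The highest value was that of EIF3B, which encodes a scaffold subunit of eIF3, at 2.39 (adjusted p = 4.2e-06). EIF4EBP2, a repressor that binds the cap-binding protein eIF4E, followed at 1.65, although its second probe gave -0.12 (not called), then EIF1AD at 1.38 and the RNA helicase EIF4A2 at 1.22. The other higher genes were EIF5AL1, EIF3C, EIF2AK1, EIF2B3 and EIF4E2, between 0.22 and 0.87. At the other end, the lowest values among genes well above background on the miR-NC RIP arrays were those of EIF2S2 and EIF2AK4. EIF2S2, the eIF2 beta subunit, was at -1.53 and EIF2AK4, the kinase GCN2, at -1.51. EIF5, which promotes GTP hydrolysis by eIF2 at the start codon, was not well above background on any RIP array. Its input was at least 2.12-fold above the RIP in miR-NC cells and at least 4.02-fold in miR-634 cells. EIF2AK3, the kinase PERK, was not well above background on the miR-NC RIP arrays, and its input was at least 1.96-fold higher there. EIF5 and EIF2AK3 are not ranked, since only bounds are given. These bounds set the group mean of the input against the dim group's mean of the higher of its own signal and the array's lowest well-measured signal. The split depends on the scaling: centered on the median gene it was 14 higher and 29 lower (4829 and 4574 of all genes), and with spike-in scaling 0 higher and 49 lower. Under that scaling, 64 of all genes were higher and 13388 lower.

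In miR-634 cells each of the 50 factor genes passed the test of RIP against input with its brightest probe and the processing used. Of these, 16 were higher and 34 lower in the RIP, where 31.2% of all genes were higher and 46.4% lower. The medians were -0.73 for the factors and -0.24 for all genes. EIF3M, EIF4E2, EIF4G1, EIF4G3 and EIF5A lost their calls when centered on the median gene, with the percentile over all probes and with the authors' values. EIF4A2 lost its call with quantile normalization, no filter and the replicate block. For some genes another passing probe was called in the other direction. These were EIF4E2 (0.46 and 1.30, against -0.31 with the brightest probe) and EIF4G3 (0.60 against -0.22). They also included EIF4EBP2 (-0.53 against 0.88) and EIF2A (1.13 against -1.02). The remaining EIF4E2 probe gave -0.46. The spread across the factors was 1.12 (SD over genes) against 0.85 in miR-NC cells, and over all genes it was likewise 1.12 against 0.88. EIF2B4, at 2.42, took the place of EIF3B as the highest, and EIF4E, EIF2B3, EIF3J and EIF1AD followed, at 1.86, 1.82, 1.59 and 1.25. With spike-in scaling the split was 3 higher and 43 lower, and that of all genes 782 and 11397.

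**Figure D2:**
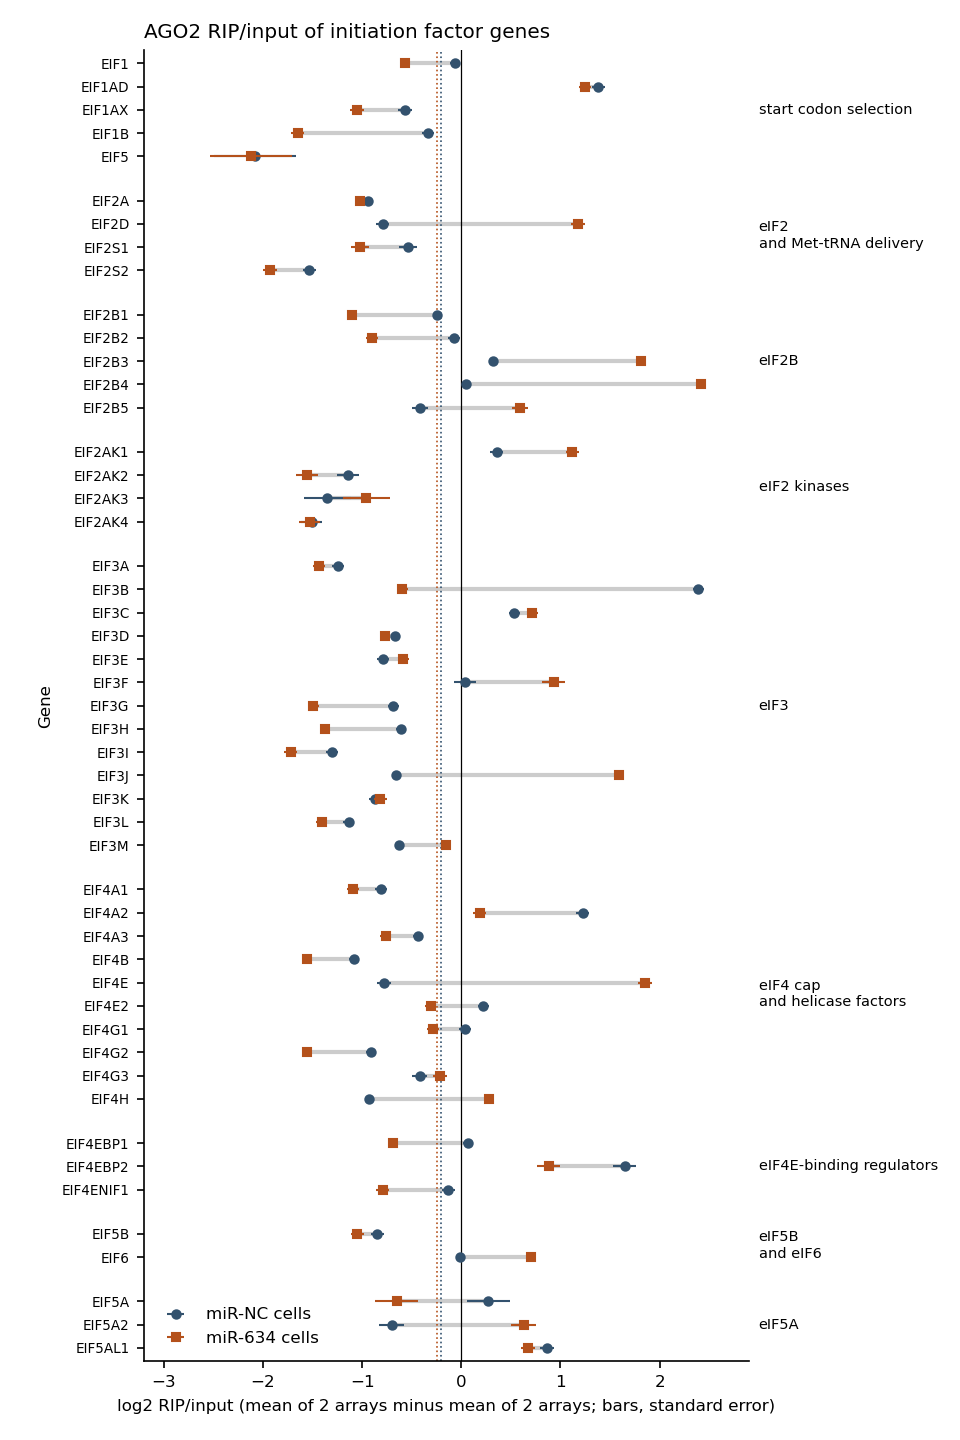
Log2 RIP/input of the initiation factor genes in miR-NC cells (circles) and miR-634 cells (squares), by complex, with standard errors from limma (2 RIP and 2 input arrays in each kind of cells); dotted lines are medians of all genes, -0.21 and -0.24. EIF4E, EIF3J, EIF2D and EIF2B4 move far to the right and EIF3B far to the left. EIF5 was not well above background on the RIP arrays, nor EIF2AK3 on the miR-NC RIP arrays, and with spike-in scaling the falls of enrichment after miR-634 other than those of EIF3B and EIF1B become positive.

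After miR-634, the fold change of enrichment was higher for 12 of the 50 genes and lower for 24, where 24.8% of all genes were higher and 34.7% lower. The median was -0.24 over the factors and -0.18 over all genes, and the SD over genes was 1.01 and 0.95. The RIP level alone was higher for 12 and lower for 26 (28.0% and 39.4% of all genes). Because the RIP arrays were scaled to their own detected probes, a fall here is a fall relative to those probes. With spike-in scaling the median of all genes moved from -0.18 to 0.91, and the split of the factors became 31 higher and 1 lower (8470 and 191 of all genes). Centered on the median gene it was 15 higher and 16 lower (4040 and 3512 of all genes). The 12 rises were called under each of the 20 other settings, and among the falls only that of EIF3B was; 13 of the 23 falls described passed in each setting apart from spike-in scaling.

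The 4 largest rises were those of EIF4E, EIF2B4, EIF3J and EIF2D. EIF4E (NM_001968), the cap-binding protein whose supply limits cap-dependent translation, had input levels of 0.67 and 0.70 in miR-NC cells and of 0.07 and 0.10 in miR-634 cells. In the RIP it went from -0.11 and -0.09 to 2.03 and 1.85. The miR-634 RIP arrays were thus the highest with this scaling, and the input fell with the brightest probe. The input changes of the other EIF4E probes, -0.72 and -0.33, were not called. With spike-in scaling the enrichment in miR-634 cells was 0.47, and the miR-NC input lay above the miR-634 RIP. Enrichment rose 6.23-fold (log2 2.64, adjusted p = 1.8e-05, standard error 0.10), and 2 dimmer EIF4E probes gave log2 values of 2.82 and 2.56.

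EIF2B4 (NM_001034116), the delta subunit of eIF2B, had input levels of -2.10 and -2.07 in miR-NC cells and -2.32 and -2.25 in miR-634 cells. The RIP arrays read -2.02 and -2.05 in miR-NC cells, close to the input, and 0.10 and 0.16 in miR-634 cells. This was a 5.16-fold rise of enrichment (log2 2.37, adjusted p = 1.0e-05, standard error 0.07), while the input change of -0.20 did not pass (adjusted p = 0.0614). The 5 eIF2B subunits divided, with 3 higher and 2 lower (24.8% and 34.7% of all genes). The gamma and epsilon subunits EIF2B3 and EIF2B5, which form the catalytic part, rose by 1.50 and 1.01, and the 2 other EIF2B3 probes gave 1.60 and 1.60. The alpha and beta subunits EIF2B1 and EIF2B2, which form the regulatory core together with the delta subunit, had values of -0.86 and -0.83. These falls passed when centered on the median gene (-0.68 and -0.65) and were 0.22 and 0.26, not called, with spike-in scaling. The input of the 5 subunits changed by -0.20 to 0.19, and none of these input changes passed.

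Among the 4 genes of eIF2 and of methionyl-tRNA delivery, 1 rose and 2 fell (24.8% and 34.7% of all genes). EIF2D (NM_006893), which can deliver tRNA without GTP and takes part in ribosome recycling, had input levels of -1.99 and -1.98 in miR-NC cells and -2.46 and -2.58 in miR-634 cells. Its RIP levels were -2.71 and -2.84 in miR-NC cells and -1.37 and -1.32 in miR-634 cells, above each of the other 3 groups with this scaling. With spike-in scaling its enrichment in miR-634 cells was -0.21 and not called. EIF2D thus rose 3.91-fold in enrichment (log2 1.97, adjusted p = 3.9e-05, standard error 0.10). The alpha and beta subunits of eIF2 itself, EIF2S1 and EIF2S2, were lower, with values of -0.48 and -0.39. Neither was called when centered on the median gene, both were positive with spike-in scaling (0.60, not called, and 0.69), and a second EIF2S2 probe gave 0.01. EIF2A, which can bring methionyl-tRNA without GTP, did not pass with its brightest probe (-0.08, adjusted p = 0.37), and no fold change is given from its other probe, which was not well above background on the miR-NC RIP arrays.

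Of the 4 kinases that phosphorylate eIF2 alpha and so lower general initiation, 1 rose and 0 fell (24.8% and 34.7% of all genes). With the brightest probe and the scaling used, the kinase called was EIF2AK1, the heme-regulated kinase HRI. It rose by 0.76 (adjusted p = 0.000909) and was enriched in the RIP of both kinds of cells, at 0.36 and 1.12, which became -2.11 (called) and -0.27 (not called) under spike-in scaling. The fold change of enrichment of EIF2AK2 (PKR) and EIF2AK4 was -0.42 and -0.02 (adjusted p = 0.0603 and 0.925). For EIF2AK3, with the miR-NC RIP at background, the change did not pass and no size or direction is given. EIF2AK2 depended on the setting. It was called lower with the mean of its probes (-0.35, adjusted p = 0.0307), the filter on all arrays, an intensity trend, the replicate block and when the second miR-NC RIP array was dropped, and its other probe was called too (-0.28, adjusted p = 0.0389). With spike-in scaling all 4 kinases were called higher, as were 8470 of all 13659 genes. The values were 0.66 for EIF2AK2, 1.07 for EIF2AK4 and 1.85 for EIF2AK1, and EIF2AK3 has no size, for the reason given.

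The 13 eIF3 genes lay between -2.98 and 2.25, with 3 higher, 5 lower and 5 not called (24.8% and 34.7% of all genes were higher and lower). EIF3B (NM_001037283) had input levels of 2.53 and 2.45 in miR-NC cells and 2.93 and 2.92 in miR-634 cells. In the RIP it was at 4.87 and 4.90 in miR-NC cells and 2.28 and 2.38 in miR-634 cells. The RIP thus went from far above the input to below it, while the input rose; with spike-in scaling the enrichment was -0.08 with miR-NC (not called) and -1.98 with miR-634. EIF3B was 7.91-fold lower in enrichment (log2 -2.98, standard error 0.08, adjusted p = 7.9e-06), and a second EIF3B probe gave -3.06. With spike-in scaling it was still lower, at -1.90.

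EIF3J (NM_003758), a loosely bound subunit that acts in ribosome recycling, had input levels of -0.75 and -0.75 in miR-NC cells and -1.31 and -1.32 in miR-634 cells. Its RIP levels were -1.44 and -1.38 in miR-NC cells and 0.28 and 0.27 in miR-634 cells, so that the order of RIP and input was reversed; with spike-in scaling the enrichment in miR-634 cells was 0.20 and not called. Its enrichment was 4.75-fold higher in miR-634 cells (log2 2.25, standard error 0.06, adjusted p = 8.3e-06). A dimmer EIF3J probe gave 1.23, which did not pass (adjusted p = 0.0901). The non-coding neighbor EIF3J-DT, counted apart with EIF1B-AS1 and EIF2AK3-AS1, rose by 0.65 in enrichment (adjusted p = 0.000539) and fell by 0.28 in input (adjusted p = 0.0182), and neither of the other 2 was called in either.

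The subunits EIF3F and EIF3M rose by 0.89 and 0.47. EIF3G and EIF3H were lower, at -0.81 and -0.77, and kept their calls when centered on the median gene (-0.63 and -0.59). The falls of EIF3I and EIF3L (-0.42 and -0.27) did not, and with spike-in scaling these 4 genes had 0.28, 0.31, 0.67 and 0.81, the last 2 called. EIF3A, EIF3C, EIF3D, EIF3E and EIF3K lay between -0.20 and 0.21 and did not pass, although EIF3C and EIF3E passed when centered on the median gene (0.36 and 0.38). EIF3A was called lower with normexp and quantile normalization and with an intensity trend, and EIF3D with either quantile setting. A second EIF3C probe gave -0.345, not called. Under spike-in scaling EIF3A, EIF3C, EIF3D, EIF3E and EIF3K were called higher, at 0.89, 1.27, 0.98, 1.29 and 1.13, as were 8470 of all 13659 genes. EIF3C, whose probe cannot be told apart here from its near-identical copy EIF3CL, was enriched in both kinds of cells, at 0.53 and 0.72 (-1.94 and -0.67, both called lower, under spike-in scaling).

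**Figure D3:**
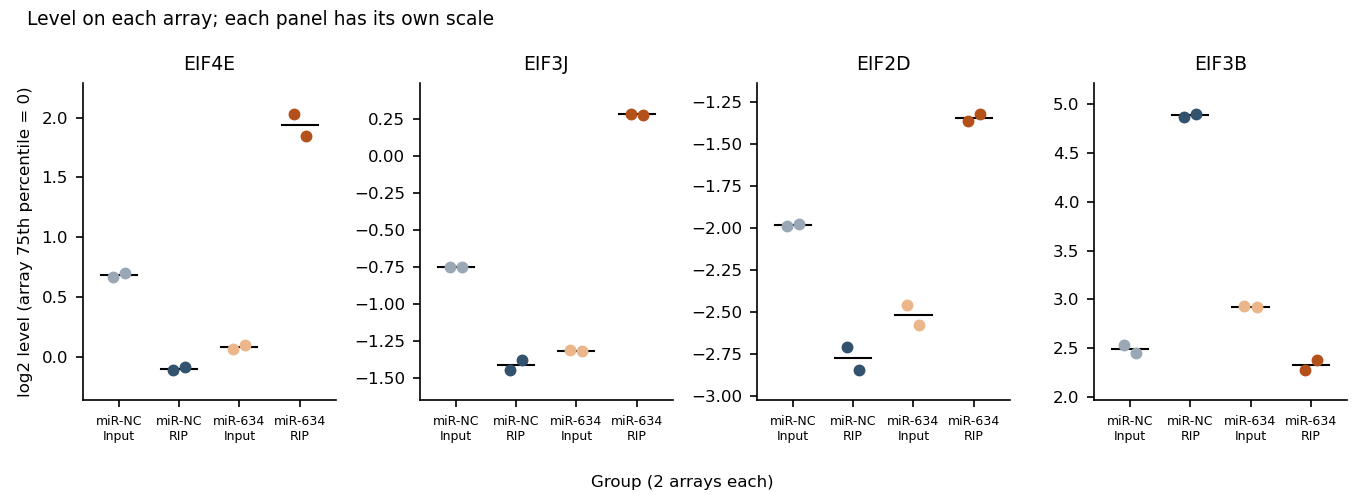
Log2 level of EIF4E, EIF3J, EIF2D and EIF3B on each array (vertical axis, 75th percentile of detected probes at 0; each panel has its own scale), by group; points are arrays and lines are means of 2. For EIF4E, EIF3J and EIF2D the miR-634 RIP arrays are the highest of the 4 groups, with means of 1.94, 0.28 and -1.34, and the RIP and the input changed in opposite directions; for EIF3B the RIP mean falls from 4.88 to 2.33 while the input rises. With spike-in scaling the input change of EIF2D, EIF3J and EIF3B was not called, and the miR-634 RIP was no longer the highest group for EIF4E, EIF3J or EIF2D, whose miR-NC input lay above it.

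Of the 10 genes for cap-binding and helicase factors, 2 rose and 7 fell (24.8% and 34.7% of all genes). Besides EIF4E, EIF4H, a cofactor of the eIF4A helicase, rose by 1.22 (adjusted p = 3.5e-05). EIF4A2 (NM_001967), one of the eIF4A helicases, had input levels of 1.90 and 1.94 in miR-NC cells and 1.59 and 1.49 in miR-634 cells. The RIP arrays gave 3.08 and 3.21 in miR-NC cells and 1.75 and 1.70 in miR-634 cells. It was thus lower in both RNA fractions, and more so in the RIP. For EIF4A2 the log2 fold change of enrichment came to -1.04 (adjusted p = 0.00034, standard error 0.09). The helicase cofactor EIF4B was at -0.47 and EIF4G2, a relative of the scaffold eIF4G without its cap-binding partner's site, at -0.65. EIF4A1, EIF4A3 and the scaffold EIF4G1 were at -0.28, -0.33 and -0.32 and were not called when centered on the median gene. With spike-in scaling these 6 falls were positive: 0.045 for EIF4A2, 0.61 for EIF4B, 0.43 for EIF4G2, 0.80 for EIF4A1, 0.76 for EIF4A3 and 0.76 for EIF4G1, the last 3 called. The probes of EIF4E2, a cap-binding homolog that acts in repression, disagreed: the brightest gave -0.53, a second for the same accession gave -0.59, and 2 probes for NM_001282958 gave -0.36 and 0.64, each called. EIF4G3 was at 0.20 (adjusted p = 0.147), and its second probe gave 0.73, which passed. It was also called higher when centered on the median gene (0.38), with the mean of its probes (0.47) and under spike-in scaling (1.29). In all, 16 factor genes had more than 1 passing probe, and in 7 of these the probes differed in their call.

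The 3 regulators that bind eIF4E all fell with their brightest probes, as did 34.7% of all genes. EIF4EBP1 and EIF4EBP2, the repressors that release eIF4E when phosphorylated downstream of mTOR, were at -0.76 and -0.77, and EIF4ENIF1, which carries eIF4E into the nucleus, was at -0.66. Their falls passed when centered on the median gene (-0.58, -0.59 and -0.48) and were not called with spike-in scaling, where the values were 0.33, 0.32 and 0.42. Other probes differed in size, with -0.41 for EIF4EBP2 and -0.48, not called, for EIF4ENIF1. The input of these regulators changed by -0.03 to 0.09 and did not pass, whereas that of their partner EIF4E fell.

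Of the 6 genes listed under start codon selection, 4 fell and 0 rose (34.7% and 24.8% of all genes). EIF1AD is in this list without a claim that it selects start codons. EIF1B (NM_005875), a close relative of EIF1, had input levels of -1.69 and -1.72 in miR-NC cells and -1.61 and -1.59 in miR-634 cells. The RIP arrays stood at -1.97 and -2.11 in miR-NC cells and -3.29 and -3.21 in miR-634 cells. Only the RIP change was called, and enrichment changed by -1.31 (adjusted p = 0.000125, standard error 0.09). EIF1 and EIF1AX were at -0.50 and -0.48, and both passed when centered on the median gene. The fall of EIF1AX was not called with the percentile over all probes or with the authors' processed values. With spike-in scaling EIF1B was at -0.23 and EIF1 and EIF1AX at 0.58 and 0.60, and none of these was called. EIF1AD did not change detectably (-0.14, adjusted p = 0.237) and was enriched in both kinds of cells, at 1.38 and 1.25. Under spike-in scaling its fold change was 0.95 and called, and its enrichment was -1.09 (called) and -0.14 (not called). EIF5 is not given a fold change, since it was not well above background on the RIP arrays of either kind of cells. The fourth fall was that of a close copy of EIF1AX, whose probe may share its signal and which is not described further. This copy stays in the counts of factor genes, which may thus hold the signal of EIF1AX more than once. Of the last 2 factors, EIF6, which keeps the large ribosomal subunit from joining too early, rose by 0.71 (adjusted p = 0.000356), and EIF5B was at -0.20 (adjusted p = 0.118).

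**Figure D4:**
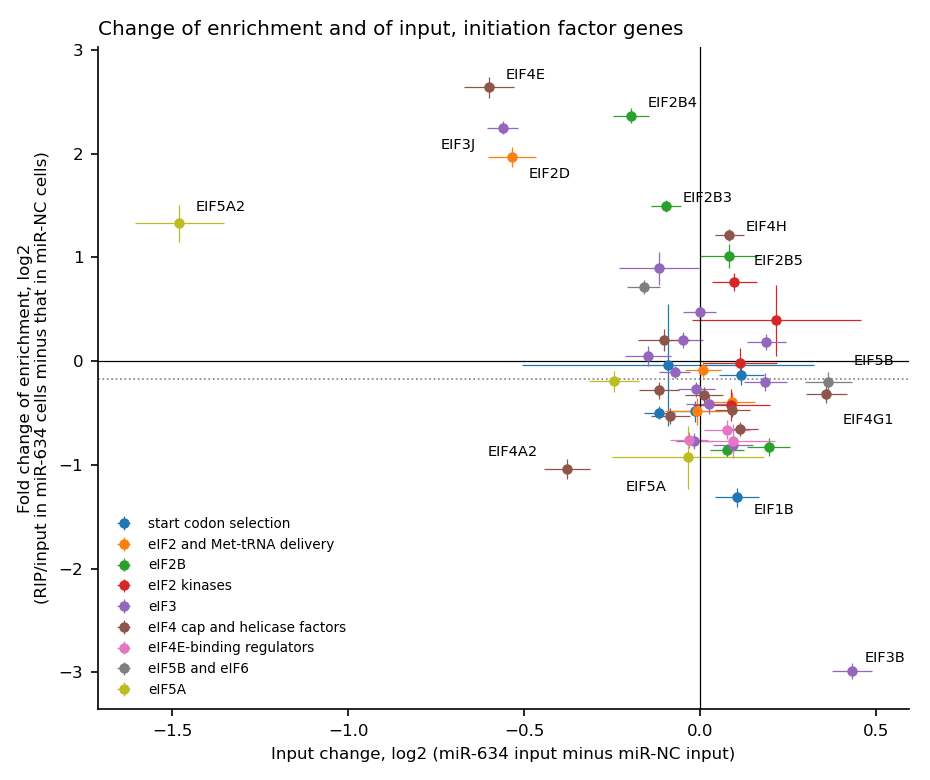
Fold change of enrichment (vertical axis, log2) against input change (horizontal axis, log2) of the initiation factor genes, colored by complex, with standard errors from limma; the dotted line is the median fold change of enrichment of all genes, -0.18. Both axes use the input arrays, so their errors are shared. EIF5A2 stands at -1.48 on the input axis, and with spike-in scaling the falls of enrichment other than those of EIF3B and EIF1B become positive.

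In the input RNA few factors changed. The input was higher for 3 of the 50 genes and lower for 5, where 6.57% of all genes were higher and 7.48% lower, and the medians were -0.01 for both the factors and all genes. After EIF5A2 the falls were those of EIF4E (-0.60, adjusted p = 0.00721), EIF3J (-0.56, adjusted p = 0.0031), EIF2D (-0.54, adjusted p = 0.00916) and EIF4A2 (-0.38, adjusted p = 0.0211). The rises were those of EIF3B (0.43, adjusted p = 0.01), EIF5B (0.36, adjusted p = 0.0236) and the scaffold EIF4G1 (0.36, adjusted p = 0.0171). EIF5B had input levels of -1.31 and -1.30 in miR-NC cells and -0.92 and -0.96 in miR-634 cells. EIF4G1 had 1.05 and 1.05 in miR-NC cells and 1.40 and 1.41 in miR-634 cells. The input calls of EIF4A2 and EIF5B were lost with the percentile over all probes, the authors' processed values and no filter. That of EIF4G1 was lost with no filter, and that of EIF3J with the mean of probes. When any 1 of the 4 input arrays was left out, 0 rises were called, and the falls called were 3 without the miR-634 array numbered 1 and 2 without each of the others. EIF5A2 and EIF3J were called each time, but a group then holds 1 array and the spread comes from the other groups. With spike-in scaling 0 were higher and 2, EIF5A2 and EIF4E, were lower, while 10 of all genes were higher and 237 lower.

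The other genes of translation came from lists of 41 genes, of which 38 were tested. For the fold change of enrichment 17 were higher and 13 lower (24.8% and 34.7% of all genes), with a median of -0.06. These counts include DHPS and DOHH, both higher, which were added with their values already seen. Under spike-in scaling 27 were higher and 0 lower, where 8470 of all genes were higher and 191 lower. The list of elongation factors, which also holds EEF1E1 and the kinase EEF2K, had 6 higher and 0 lower of 8. The largest rise was that of EEF1E1, a scaffold protein of the tRNA synthetase complex, at 3.14 (standard error 0.06, adjusted p = 6.2e-06). For termination and ribosome rescue 3 rose and 1 fell of 5, for poly(A)-binding proteins and partners 2 rose and 3 fell of 6, for other initiation proteins 1 rose and 5 fell of 9, and for initiation signalling 3 rose and 4 fell of 8. The largest fall was that of CTIF, which joins the nuclear cap-binding complex to initiation, at -0.96 (adjusted p = 0.000238), which was 0.13 with spike-in scaling. In the input, 5 of the 38 were higher and 4 lower (6.57% and 7.48% of all genes), and 0 were called under spike-in scaling. The largest rise was that of PPP1R15A, a phosphatase subunit that removes the phosphate of eIF2 alpha, at 0.84 (adjusted p = 0.00122). The largest fall was that of EEF2K, the kinase of elongation factor eEF2, at -0.56 (adjusted p = 0.0104).

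**Figure D5:**
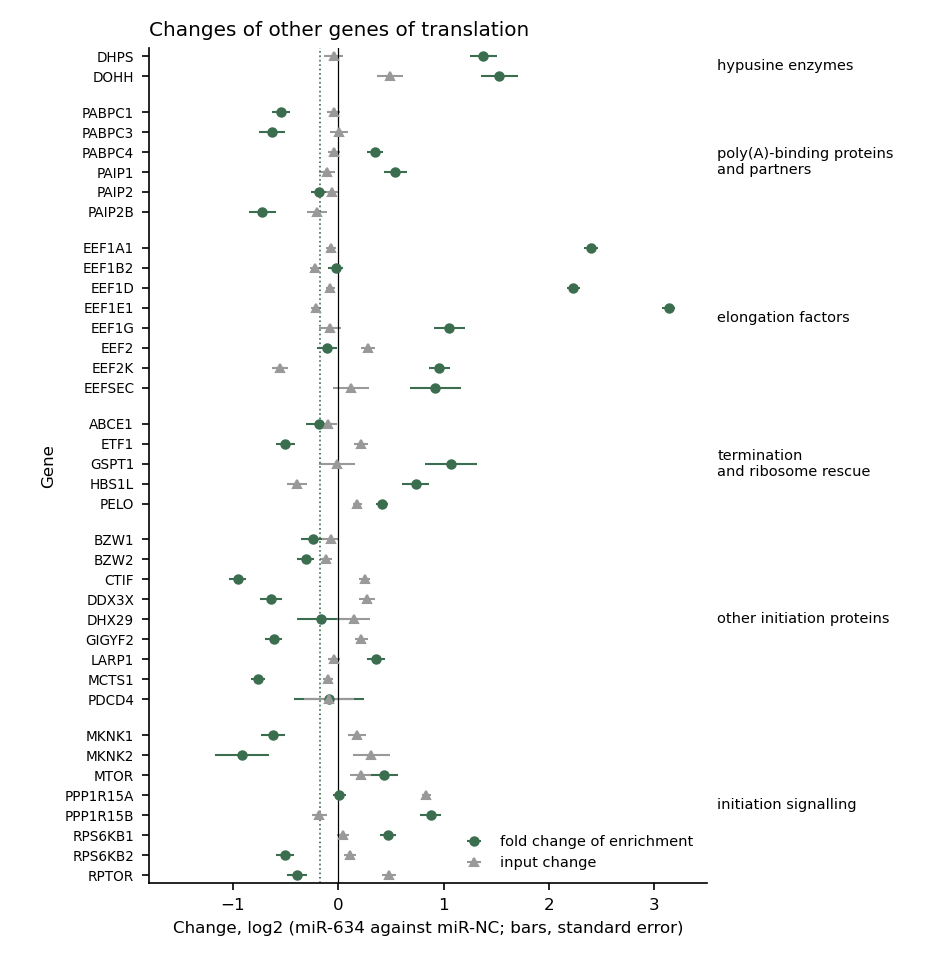
Fold change of enrichment (circles) and input change (triangles), both log2, of 38 other genes of translation by list, with standard errors from limma; the dotted line is the median fold change of enrichment of all genes, -0.18. DHPS and DOHH and 6 of 8 genes of the elongation factor list were called higher in enrichment, with EEF1E1 at 3.14. Of all genes, 24.8% were called higher. With spike-in scaling the fall of CTIF becomes 0.13.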

How the data were processed

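RNA from A431 cells was hybridized to 8 one-color Agilent arrays. The deposited scanner files hold an intensity for each spot, with local background and spatial trend removed. The authors' own log2 values, also deposited, followed log2 intensity shifted by the 75th percentile of all probes and centered for each probe. The file headers name Agilent Feature Extraction 12.0.1.1 and the submitters' processing notes version 9.1. Control and outlier spots were left out and spots of a probe averaged, leaving 58179 probes; no spot was saturated. Log2 signals were shifted by the array's 75th percentile over the 16805 probes (28.9%) well above background on all 8 arrays. Symbols were found for 31090 of the 33069 probes that carry RefSeq accessions, through the RefSeq table of GRCh38.p14, giving 22430 symbols. Tested genes had a probe well above background on the 4 input arrays, of which the brightest was used.

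The 4 group means were fitted with lmFit and eBayes of limma 3.58.1 (R 4.3.3), with Benjamini-Hochberg adjustment over all tested genes and a threshold of 0.05. The difference between EIF5A2 and EIF5A was tested with an exact permutation test (scipy 1.17.1). The fit was also run on simulated data, and no result given here draws on that run. Genes named are the protein-coding members by complex, with levels on each array for EIF5A2, EIF5A, EIF5AL1, the top 4 called genes in each direction for enrichment, the top 3 in each direction for input (with the same sign from the first and second arrays), and the largest changes among other genes of translation. DHPS and DOHH were added with their values already seen. The members, lists and markers were chosen with earlier results of these data known. The alternatives were normexp background correction (offset 50, on median signals) with quantile normalization, quantile normalization alone, the percentile over all probes, the median of detected probes, spike-in scaling (10 probes), centering on the median gene, the authors' processed log2 values, a filter on all arrays, no filter, a gene's probes averaged, eBayes with an intensity trend, a replicate block and leaving out each array. With 1 slide and 1 scan, neither could be fitted; inputs and RIPs lay in different rows and the 2 kinds of cells in different columns, which cannot be told apart from the groups. Tables used Python 3.11.15, numpy 2.4.6 and pandas 2.3.3, and plots matplotlib 3.10.9.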

Additional observations from a re-analysis of the deposited data

Results flagged for a closer look

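For 4 of the 50 factor genes (8.0%) the RIP level and the input level changed in opposite directions and each change was called, as for 1120 of all 13659 genes (8.2%), so the share is near that of all genes. The fold change of enrichment is the difference of these changes, and it was called for each of the 1120 genes, so its call adds nothing to the choice of the 4. EIF4E (2.64), EIF3J (2.25) and EIF2D (1.97) had a higher RIP and a lower input level in miR-634 cells. EIF3B (-2.98) had a lower RIP and a higher input level. The RIP and input changes were 2.04 and -0.60 for EIF4E, 1.69 and -0.56 for EIF3J, 1.43 and -0.54 for EIF2D, and -2.55 and 0.43 for EIF3B. The input changes given are those of the brightest probes. With spike-in scaling those of EIF3J, EIF2D and EIF3B were not called. Without any 1 of the input arrays those of EIF4E and EIF3B were not called, and that of EIF2D was called only without the miR-634 input array numbered 1. With the mean of probes the input fall of EIF3J was not called, while the input changes of EIF4E, EIF2D and EIF3B were. A second EIF3B probe also called the input rise (0.42). For EIF4E, 2 other probes gave input changes of -0.72 and -0.33, which were not called (adjusted p = 0.0576 and 0.224).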

How the results depend on the processing

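Spike-in scaling, which moved input and RIP arrays in opposite directions and the RIP groups by different amounts, changed the results most. With spike-in scaling the fold change of enrichment was higher for 31 factor genes and lower for 1 (8470 and 191 of all genes), the RIP change higher for 33 and lower for 2 (9077 and 404 of all genes), the input change higher for 0 and lower for 2 (10 and 237 of all genes), the enrichment in miR-NC cells higher for 0 and lower for 49, and that in miR-634 cells higher for 3. Centered on the median gene, the enrichment in miR-NC cells was higher for 14. With spike-in scaling the log2 fold change of enrichment changed its sign for many genes: EIF1 0.58, EIF1AD 0.95, EIF1AX 0.60, EIF2A 1, EIF2AK2 0.66, EIF2AK4 1.07, EIF2B1 0.22, EIF2B2 0.26, EIF2S1 0.60, EIF2S2 0.69, EIF3A 0.89, EIF3D 0.98, EIF3G 0.28, EIF3H 0.31, EIF3I 0.67, EIF3L 0.81, EIF4A1 0.80, EIF4A2 0.045, EIF4A3 0.76, EIF4B 0.61, EIF4E2 0.56, EIF4EBP1 0.33, EIF4EBP2 0.32, EIF4ENIF1 0.42, EIF4G1 0.76, EIF4G2 0.43, EIF5A 0.16, EIF5AL1 0.89, EIF5B 0.88 and CTIF 0.13. With the mean of probes EIF2A had 1.17, which includes a probe not well above background on the miR-NC RIP arrays, so no size is read from it. For the input change the factor genes called higher were 1 with no filter and 6 with an intensity trend (1272 of all genes), and 8 were lower with the filter on all arrays (1316 of the 10954 genes kept there). Among all genes, the input change was higher for 535 and lower for 430 with the 75th percentile over all probes. It was higher for 539 and lower for 434 with the authors' processed values, and higher for 598 with the replicate block. With no filter, the input change was higher for 374 and lower for 574 of the 22430 genes tested there. With no filter, 8760 of the 22430 genes tested there had a lower fold change of enrichment. Leaving out an input array left 0 factor genes with a higher input: without the miR-NC input arrays numbered 1 and 2, 2 and 2 were lower (72 and 161 of all genes higher, 175 and 287 lower), and without the miR-634 input arrays numbered 1 and 2, 3 and 2 were lower (133 and 83 of all genes higher, 291 and 215 lower). Without the miR-NC RIP array numbered 1 the input change was lower for 5 factor genes, and 998 of all genes were higher and 1153 lower. The causes of these differences were not tested.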
